A study of Homo sapiens with 9 samples.

Results

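The ends of 39 human autosome arms were compared in SK-N-MC, an established line of Ewing sarcoma cells, with and without hairpins against CHD4. An end window held the deposited accessible regions whose midpoint lay within 5 Mb of the first or last base of an autosome in GRCh38. The short arms of chromosomes 13, 14, 15, 21 and 22 were left out, as were regions wider than 20 kb or with a value below 0 in the second of the authors' score columns. These rules left 17 short-arm (p) and 22 long-arm (q) windows, 195 Mb in all, and 36360 of the 291899 regions in the 3 lists. The shScramble list gave 9523 of them, the shCHD4#1 list 15561 and the shCHD4#2 list 11276. The windows had been picked out because earlier results of these data pointed to chromosome ends, so their region numbers, the values they were chosen by, are a description.

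ATAC-seq, which marks open DNA by transposase insertion, had been run on 9 samples in 3 groups of 3 biological replicates. All cells had 48 h of doxycycline at 100 ng/ml. The control group carried the scrambled hairpin shScramble and is labelled wildtype, and the other groups carried shCHD4#1 (hairpin 1 below) or shCHD4#2 (hairpin 2) and are labelled as CHD4 knockdown. Every sample of 100000 SK-N-MC cells had 100 Drosophila S2 cells added. The files analysed here were 1 region list per group, and each was inferred to pool that group's replicates. No spread between replicates was left, no difference between groups could be tested, and read depth was unknown. The lists do not measure the CHD4 level, so the knockdown itself was not checked here.

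CHD4 is the ATPase of the NuRD complex, which slides nucleosomes and joins histone deacetylases, MBD proteins and other subunits in repressing enhancers and promoters. Human chromosomes end in long arrays of the telomere repeat, and just inside them lie subtelomeric stretches built of segments copied between chromosomes. The next megabases of many arms are rich in genes, G and C bases and CpG islands, and the terminal parts of others, such as the long arm of chromosome 4, hold few genes.

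Gene starts that had a region within 1 kb in both hairpin lists and none in the shScramble list numbered 208 of 1842 (6.95% over all autosomes), and for 89 of these genes the whole RefSeq promoter (250 bases before to 50 after a listed start, GRCh38.p14) lay inside a region that both hairpins shared and shScramble lacked. The 4 printed here were chosen because their regions ranked highest in both hairpin lists; capitals mark each CG pair. They are STK25 on 2q (chr2:241508535-241508834, minus strand), a serine/threonine kinase, ZNF787 on 19q (chr19:56121246-56121545, minus strand) and ZNF10 on 12q (chr12:133130377-133130676, plus strand), both zinc finger genes, and AGPAT2 on 9q (chr9:136687408-136687707, minus strand), an enzyme of phospholipid synthesis.
STK25: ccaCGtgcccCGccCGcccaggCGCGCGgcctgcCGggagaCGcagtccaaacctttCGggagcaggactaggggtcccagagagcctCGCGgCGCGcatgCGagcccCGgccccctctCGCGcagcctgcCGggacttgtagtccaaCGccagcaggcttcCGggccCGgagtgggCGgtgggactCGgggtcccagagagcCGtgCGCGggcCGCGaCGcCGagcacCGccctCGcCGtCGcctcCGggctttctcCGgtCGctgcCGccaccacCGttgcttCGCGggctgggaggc
ZNF787: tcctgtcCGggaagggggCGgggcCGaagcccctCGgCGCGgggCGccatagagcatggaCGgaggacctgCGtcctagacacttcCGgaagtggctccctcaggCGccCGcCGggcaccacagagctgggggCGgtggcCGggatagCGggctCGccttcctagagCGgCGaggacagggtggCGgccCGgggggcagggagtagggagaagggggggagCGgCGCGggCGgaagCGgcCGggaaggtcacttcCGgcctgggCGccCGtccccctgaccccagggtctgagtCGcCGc
ZNF10: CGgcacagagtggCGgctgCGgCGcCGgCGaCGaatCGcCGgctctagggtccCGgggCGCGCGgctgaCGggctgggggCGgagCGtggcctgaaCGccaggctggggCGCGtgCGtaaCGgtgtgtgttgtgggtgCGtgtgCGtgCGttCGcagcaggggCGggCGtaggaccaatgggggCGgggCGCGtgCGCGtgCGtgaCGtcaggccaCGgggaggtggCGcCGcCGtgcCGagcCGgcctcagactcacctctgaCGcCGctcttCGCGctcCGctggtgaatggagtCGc
AGPAT2: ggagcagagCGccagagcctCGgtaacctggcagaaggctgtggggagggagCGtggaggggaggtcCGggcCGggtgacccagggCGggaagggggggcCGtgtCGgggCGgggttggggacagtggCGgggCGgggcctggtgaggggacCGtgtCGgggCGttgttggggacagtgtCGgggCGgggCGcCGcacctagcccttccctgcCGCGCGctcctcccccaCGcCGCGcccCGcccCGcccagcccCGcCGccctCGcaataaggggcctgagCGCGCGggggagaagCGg

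The 4 promoters held 41, 32, 46 and 33 CG pairs and had a G and C content of 75.7%, 75%, 74.3% and 77.3%. The shared region at STK25 ran from base 241508461 to 241509180, with an authors' p of 0.0188 in the hairpin 1 list and 0.01 in the hairpin 2 list. At ZNF787 it ran from 56121151 to 56124300 (authors' p 0.0254 and 0.0233), at ZNF10 from 133129991 to 133131150 (0.055 and 0.0295) and at AGPAT2 from 136686971 to 136687860 (0.0896 and 0.0531). The ZNF10 region also covers the start of ZNF891, which is read in the opposite direction, so 1 region counts for both genes.

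High CG content was general at the chromosome ends. The median promoter of the windows held 28 CG pairs and 67.7% G and C, against 21 pairs and 61.7% over the rest of the autosomes. Promoters of the 208 genes had 33 pairs and 72.3%, those of the 1015 window genes with a start covered in all 3 lists 31 and 69.3%, and those of the 408 with a start covered in none 10 and 57.7%. Starts covered with the hairpins alone were thus as CG-rich as starts covered in every list, and the part of base composition in these differences was not tested. The telomere repeat unit TTAGGG, searched on both strands, was in 7.66% of window promoters, 9.09% of those elsewhere and 8.92% of all. GGAAGGAA, a form of the ETS repeat bound by the Ewing fusion protein, was in 2.77%, 3.78% and 3.66%. The pair CG was in 99.2% of window promoters and 98.0% of all.

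Each list was denser at the chromosome ends than elsewhere. The windows held 48.8 regions per Mb with shScramble, 79.8 with hairpin 1 and 57.8 with hairpin 2, against 27.5, 38.8 and 26 per Mb over the rest of the autosomes. Relative to shScramble the hairpin 1 list was thus 1.63 times as long in the windows and 1.41 times elsewhere, and the hairpin 2 list 1.18 times in the windows and 0.944 times elsewhere. With hairpin 2, then, regions were more numerous than in the control over the summed windows and less numerous over the summed rest. This is not a clean switch between ends and interior. On 30 of 39 arms hairpin 2 was above the control, and from 5 to 10 Mb from the same ends it had 7089 regions against 6847. Dividing each window ratio by the ratio elsewhere gave 1.16 for hairpin 1 and 1.25 for hairpin 2. Of all autosomal regions, 11.4% lay in the windows with shScramble, 13% with hairpin 1 and 13.9% with hairpin 2, while the windows made up 6.78% of autosomal length and 13.1% of autosomal protein-coding genes.

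By covered length the hairpin 2 list lay below the control even in the windows. Window regions covered 15.3, 24.7 and 13.9 Mb in the order shScramble, hairpin 1, hairpin 2, and the median window region was 1310, 1330 and 1010 bp wide. Hairpin 2 regions were narrower everywhere, with a median of 1050 bp outside the windows, against 1460 bp for shScramble and 1400 bp for hairpin 1. In covered bases the windows still stood above the interior: 1.61 against 1.39 times shScramble for hairpin 1, and 0.904 against 0.710 for hairpin 2.

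**Figure D1:**
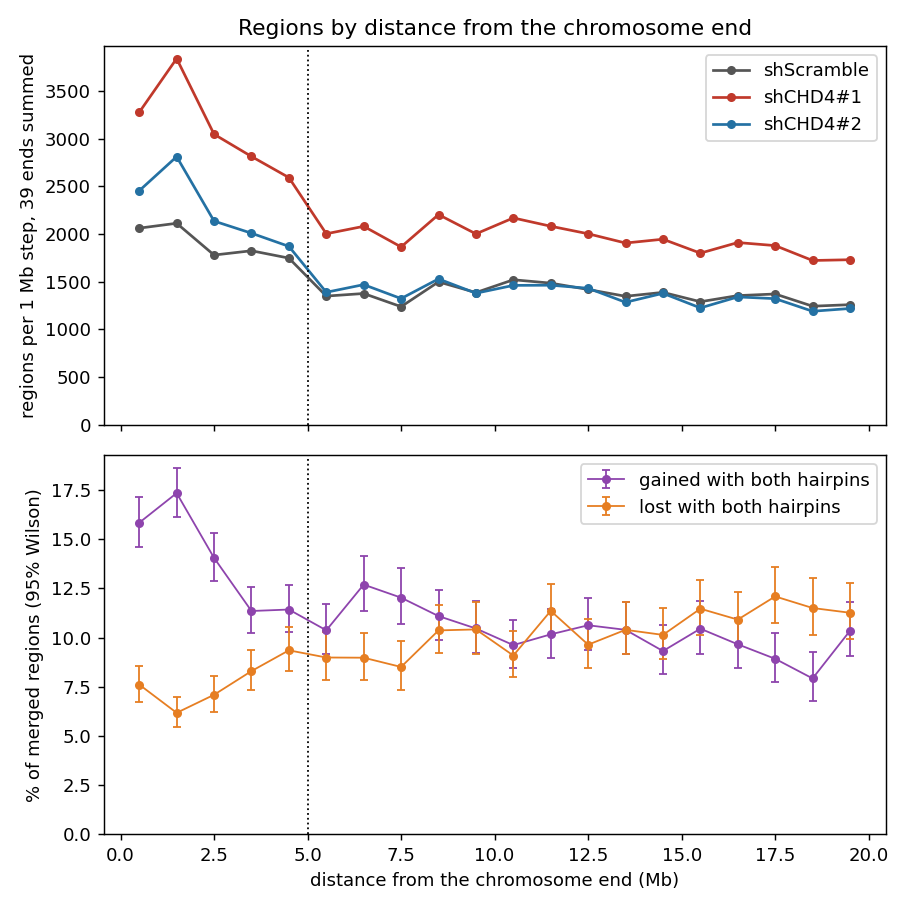
Regions per list (top) and the share of merged regions gained or lost with both hairpins (bottom, with 95% Wilson intervals), in 1 Mb steps from the chromosome end, summed over 39 ends; the dotted line marks 5 Mb. Hairpin 1 regions peak at 3838 in the second Mb, where 17.3% of merged regions were gained with both hairpins and 6.17% were lost.

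Both ratios to shScramble were highest in the outer 3 Mb. In the first Mb the lists held 2061, 3275 and 2453 regions in the order shScramble, hairpin 1, hairpin 2. The second Mb held 2112, 3838 and 2810, which is 1.82 and 1.33 times the control number. From 3 to 4 Mb the ratios were 1.54 and 1.10, and from 4 to 5 Mb they were 1.48 and 1.07. The next zone in, 5 to 10 Mb from the same ends, held 6847, 10150 and 7089 regions, or 1.48 and 1.04 times the control, so the ratios came down within the windows rather than at their edge. At the edge itself, the last Mb inside held 1747, 2591 and 1870 regions and the first Mb outside 1349, 2002 and 1389. The innermost members lay 4999738, 4999944 and 4998179 bp from an end, the nearest regions outside at 5000283, 5000079 and 5000281 bp. The widest regions kept were 19750, 18140 and 19540 bp and the narrowest dropped for width 20200 bp in each list; the lowest kept second score was 30, 29 and 30 and the highest below 0 was -3 in each list.

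Merging regions that shared at least 1 bp gave 15460 merged regions in the windows, each of which can join several regions of 1 list. Of these, 2203 (14.2%, 95% Wilson interval 13.7 to 14.8) occurred in each hairpin list but not in the control, called gained with both below, against 10.1% over all autosomes and 9.51% over the rest. Regions in the shScramble list only, called lost with both, numbered 1174 (7.59%, 7.19 to 8.02), against 10.5% over all autosomes and 10.9% over the rest. These intervals reflect counting error alone, as if neighbouring regions were independent. In the windows gained regions thus outnumbered lost ones, and in the rest of the autosomes as a whole lost ones outnumbered gained ones. The order of the windows was not theirs alone. From 5 to 10 Mb from the same ends 1223 regions (11.3%) were gained and 1023 (9.47%) lost. Of the merged regions in the windows, all 3 lists shared 4921, hairpin 1 alone had 4582, hairpin 2 alone 1121, hairpin 2 alone lacked 1075 and hairpin 1 alone lacked 384.

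A gene start lay within 1 kb of 16% of the gained regions, 6.90% of the lost ones and 22.1% of those in all 3 lists. Over all autosomes the shares were 13.8%, 4.36% and 21.8%, so this order is not a trait of the windows. Hairpin 2 regions of no other list were at a start in 16.5% of cases, and hairpin 1 regions of no other list in 5.35%. Gained regions had a median merged width of 1520 bp, and lost ones 1290 bp. Their ranks were middling: the median gained region stood at 45.3% of the hairpin 1 list and 58.5% of the hairpin 2 list, and the median lost region at 68.1% of the shScramble list, where 0% would be the smallest authors' p.

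**Figure D2:**
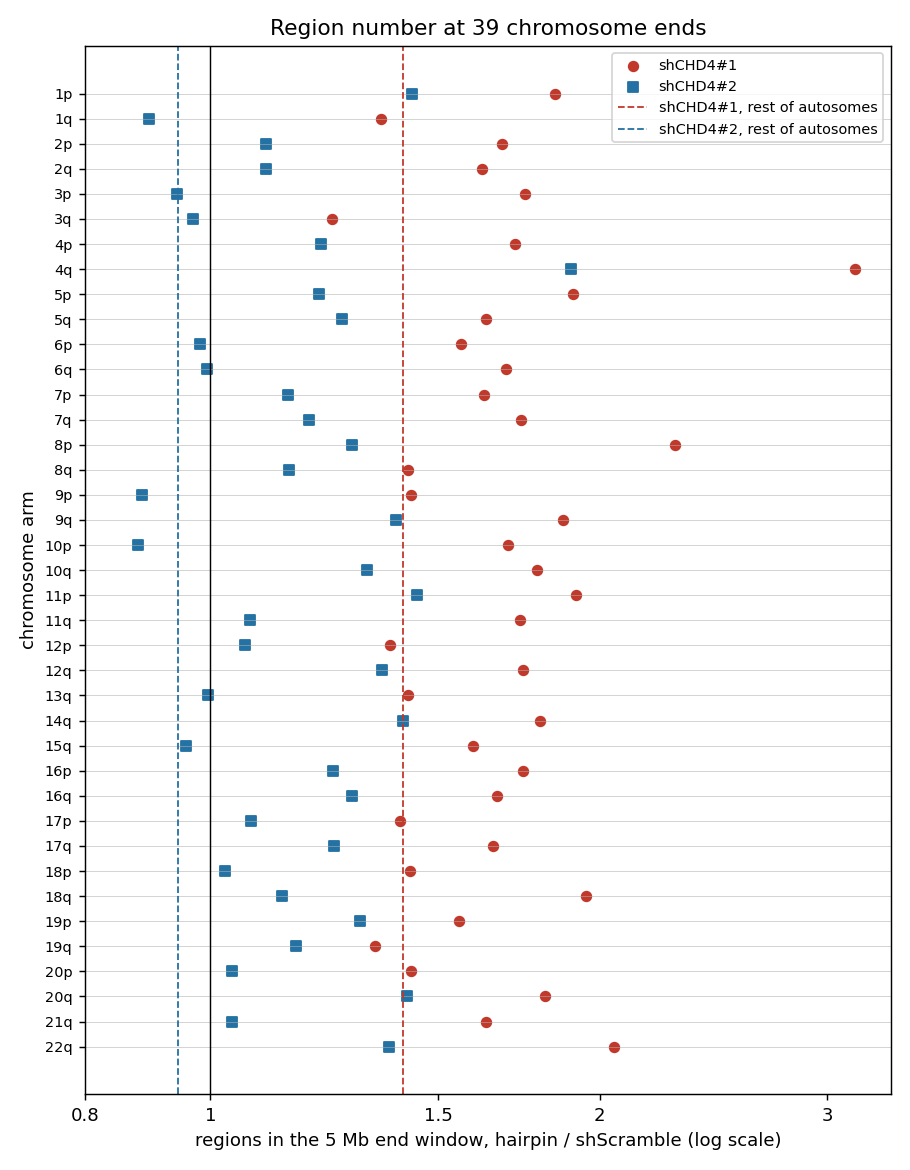
Number of regions in each 5 Mb end window relative to shScramble (log axis) for hairpin 1 (circles) and hairpin 2 (squares), with the ratio over the rest of the autosomes as dashed lines. Hairpin 1 lies above 1 on all 39 arms and above its dashed line on 34, hairpin 2 above 1 on 30 and above its dashed line on 35.

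In the full lists, which differ in length, the arm values were as follows. The hairpin 1 list was longer than the control list on 39 of 39 arms, from 1.24 times on 3q to 3.15 times on 4q, with a median of 1.68. For hairpin 2 the range ran from 0.880 times on 10p to 1.9 times on 4q, with a median of 1.15 and 30 arms above 1. Both ratios were above the rest of the autosomes on 31 arms. The share gained with both was above that of the rest on 34 arms, from 6.39% on 1q to 19.6% on 14q, and the share lost was above it on 3 arms, from 4.41% on 4q to 12% on 3p. More regions were gained than lost on 30 arms.

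The lists differ in length, and the comparison depends on that. When each list was cut to 80910 autosomal regions by the authors' p, with ties broken at random, both ratios were still above the rest of the autosomes on 31 arms, hairpin 1 on 34 and hairpin 2 on 35. Arms with more regions than the control then numbered 32 for hairpin 1 and 33 for hairpin 2. Gained regions outnumbered lost ones on 17 arms only, with 1734 gained and 1690 lost in all. Keeping regions whose authors' p was 0.05 or less, which left 1127, 1822 and 1468 in the windows, both ratios were above the rest on 25 arms, and 430 regions were gained and 248 lost. The higher density of the hairpin lists at the ends relative to the interior thus remained under both settings, and the excess of gained over lost regions shrank to near 0 with lists of equal length.

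**Figure D3:**
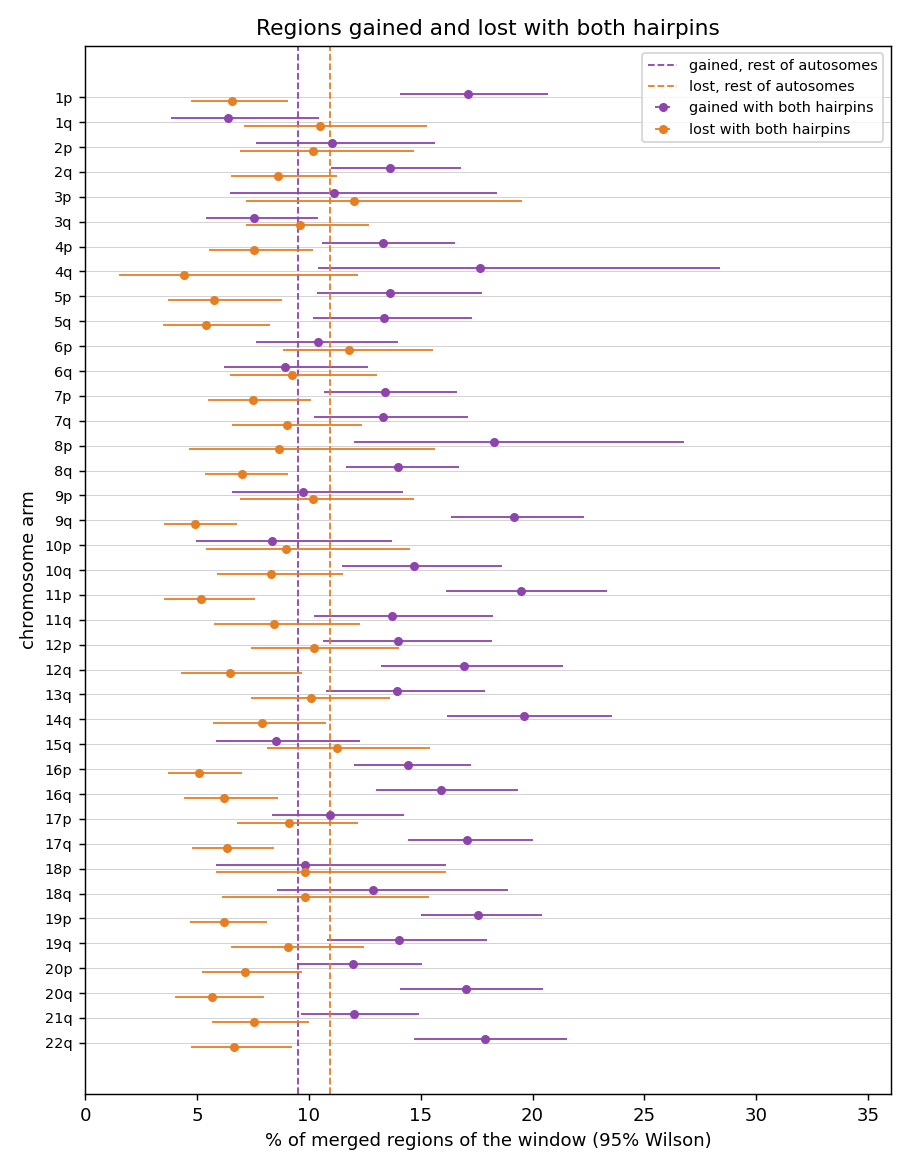
Share of the merged regions of each end window that both hairpins gained (purple) or lost (orange), with 95% Wilson intervals; dashed lines give the rest of the autosomes, 9.51% gained and 10.9% lost. Gained shares run from 6.39% on 1q to 19.6% on 14q and lost shares from 4.41% on 4q to 12% on 3p.

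Within an arm, a gene with the most gained and a gene with the most lost regions are given (where several tie, the one with the larger summed difference), with those members of the listed gene groups that had more or fewer regions under each hairpin; the other members follow with their groups, and further genes are examples chosen after their values were seen, so the arm accounts lean towards genes that differ. Over all autosomes, 25.6% of genes had more regions under each hairpin than with shScramble, 13.2% had fewer, and 0.881% of starts were covered in the control list only. Regions of a gene are counted in its locus, which adds 5 kb to either end, in the order shScramble, hairpin 1, hairpin 2. Arm counts are those of the full lists. Where gained regions outnumbered lost ones there but not at equal list length, the counts at equal length are given too.

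On chromosome 1 the arms differed. The 1p window held 298, 550 and 427 regions, and 86 of 502 merged regions were gained against 33 lost. The Mb from 2 to 3 Mb held 30 of these gains, with 8 at PLCH2, a phospholipase C gene with 7, 29 and 26 regions in its locus. Nearby, TP73, the p53 relative, had 8, 21 and 20 regions, PRDM16, a zinc finger regulator of fat and muscle cell fate, had 16, 39 and 29, and DVL1, a Wnt signal transducer, had 3, 13 and 8. AGRN, the synapse organiser agrin, had 10, 15 and 14, SKI, a corepressor of TGF-beta signalling, 12, 21 and 13, and TNFRSF14, a lymphocyte receptor, 2, 9 and 7. The gene start of HES5, a Notch target, was covered in both hairpin lists and not in the control. TNFRSF4, a receptor of activated T cells, went the other way with 6, 3 and 1 regions, and the gene with the most lost regions was TTC34, with 3. The 1q window, which holds a large olfactory receptor cluster, had the lowest gained share: 155, 210 and 139 regions, 14 of 219 gained and 23 lost. KIF26B, a kinesin relative, had 3 gained regions (22, 42 and 25 in all), and SMYD3, a lysine methyltransferase, 5 lost ones (20, 20 and 14).

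At equal list length, chromosome 2 had 23 gained and 32 lost regions on 2p and 65 and 59 on 2q. In the full lists more regions were gained than lost at both ends. On 2p the lists held 125, 210 and 138 regions, with 26 gained and 24 lost, 2 of the gains at TRAPPC12, a vesicle trafficking subunit (5, 12 and 8), and 3 of the losses at MYT1L, a neuronal transcription factor (13, 15 and 11), which had 2 gains as well. On 2q they held 320, 519 and 353, with 73 gained and 46 lost. HDAC4, a class II histone deacetylase at 239048168 to 239401649, had 21, 39 and 23 regions with 7 gained. STK25, shown above, had 2, 8 and 8, and the starts of GPC1, a cell-surface proteoglycan, and NDUFA10, a complex I subunit, were covered with the hairpins only. KIF1A, an axonal transport motor, had 6, 15 and 11 regions and 3 lost ones.

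On both arms of chromosome 3 lost regions outnumbered gained ones. The 3p window was sparse, with 52, 91 and 49 regions, and its 12 gained and 13 lost regions gave it the highest lost share of the 39 arms in the full lists. CNTN4, a neuronal adhesion gene, had 2 gained and 4 lost regions, and CRBN, a ubiquitin ligase substrate receptor, 2 gained and none lost (0, 3 and 2 in all). On 3q the counts were 360, 447 and 349, the lowest hairpin 1 ratio of any arm in the full lists (1.24), with 33 gained and 42 lost. MELTF, melanotransferrin, had 3, 9 and 4, and PIGZ, an enzyme of membrane anchor synthesis, 3, 5 and 7, with 2 gained at each. LOC124909474 had 2 lost regions (9, 5 and 6).

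Chromosome 4 held a gene-rich and a gene-poor end. On 4p, 295, 507 and 359 regions were listed, with 67 gained and 38 lost (50 and 54 at equal list length). FGFR3, a fibroblast growth factor receptor (1793293 to 1808867), had 2, 8 and 7 regions, 5 of them gained, and its start was covered with the hairpins only. NAT8L, which makes N-acetylaspartate, had 0, 6 and 4, LRPAP1, a chaperone of lipoprotein receptors, 0, 4 and 3, and FGFRL1, a relative of FGFR3, 6, 13 and 9. FAM193A went from 13 to 11 and 7, with 5 lost. The 4q window had the highest ratios of all arms for both hairpins, 3.15 and 1.9, but on 20, 63 and 38 regions, so each value rests on few regions. Of its 68 merged regions, 12 were gained and 3 lost, and 10 of its 21 genes had more regions with both hairpins. The facioscapulohumeral dystrophy region at its tip gave DUX4, an embryonic transcription factor gene in a repeat array, 1, 2 and 4 regions, FRG1 1, 1 and 1, and FRG2 0, 1 and 1. These genes have near-identical copies elsewhere, so the placement of their reads is uncertain. UFSP2, a protease of the UFM1 pathway, had the most gained regions on this arm, 2 (1, 4 and 5 in all).

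On chromosome 5 the short-arm gains lay near the tip. The 5p window had 174, 332 and 211 regions, 45 gained and 19 lost, with 20 gains from 1 to 2 Mb. At equal list length 34 were gained and 36 lost. AHRR, the repressor of the aryl hydrocarbon receptor, had 22, 28 and 23 regions, 5 gained, and PLEKHG4B 3 lost ones (11, 12 and 10). IRX4, a homeobox gene of the heart ventricle, had 2, 6 and 5, while IRX2 had 3, 4 and 3 and IRX1 none. CLPTM1L had 0, 4 and 6, while its neighbour TERT, the telomerase reverse transcriptase, had 0, 4 and 0, so only hairpin 1 gave it regions. TRIP13, a mitotic checkpoint ATPase, and BRD9, a bromodomain subunit of SWI/SNF, had starts covered with the hairpins only, and SLC6A19, a neutral amino acid transporter, a start covered with shScramble only. The 5q window had 227, 371 and 287 regions, 47 gained and 19 lost. ADAMTS2, which trims procollagen, had 1, 11 and 7, and COL23A1, a collagen, lost the most, 4 (12, 22 and 11 in all). Starts covered with the hairpins only numbered 11 there, among them MAPK9, the stress kinase JNK2, and LTC4S, leukotriene C4 synthase.

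At equal list length, chromosome 6 had 30 gained and 51 lost regions on 6p and 22 and 38 on 6q. In the full lists its gains and losses were nearly balanced. The 6p window held 213, 333 and 209 regions, with 37 gained and 42 lost. GMDS, an enzyme of fucose synthesis, had the most of both, 5 gained and 8 lost (35, 48 and 31). FOXC1, a forkhead factor of the eye and mesenchyme just beside it, had 1, 3 and 4 with a start covered by the hairpins only, whereas FOXF2 had 1, 3 and 1 and FOXQ1 had none. The 6q window held 172, 291 and 171, with 27 gained and 28 lost, RNASET2, a secreted ribonuclease (2, 6 and 6), leading the gains and 3 of the losses at AFDN, a cell junction scaffold (11, 10 and 7).

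At equal list length, chromosome 7 had 46 gained and 59 lost regions on 7p and 43 and 48 on 7q. In the full lists more regions were gained than lost at both ends. On 7p, 316, 514 and 363 regions were listed, 68 gained and 38 lost, with 23 gains between 1 and 2 Mb. MAD1L1, a spindle checkpoint gene, had 32, 69 and 39 regions with 5 gained, and PDGFA, a platelet-derived growth factor chain, 2, 10 and 8. SDK1, a synaptic adhesion gene, had 7 lost regions (39, 52 and 27). GRIFIN, a lens galectin relative, had 0, 5 and 5 in its locus, but 0, 0 and 0 in the gene without flanks. On 7q the lists held 199, 346 and 237, with 50 gained and 34 lost. PTPRN2, a phosphatase-like protein of secretory granules spread over 157539056 to 158587823, had 23, 63 and 45 regions, with 9 gained and 4 lost. SHH, the hedgehog ligand, had 1, 9 and 5, and the start of MNX1, the motor neuron homeobox gene, was covered with the hairpins only (2, 4 and 3 in the locus).

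The arms of chromosome 8 were a sparse and a dense one. The 8p window listed 42, 96 and 54 regions, 19 of 104 merged regions gained and 9 lost. DLGAP2, a postsynaptic scaffold (3, 11 and 8), had 3 gained regions, as did ARHGEF10, a guanine nucleotide exchange factor (0, 9 and 3), and CSMD1, which also had 3 lost. The 8q window, with 552, 785 and 635, had 102 gained and 51 lost (73 and 76 at equal list length). ADGRB1, a brain adhesion receptor, had 16, 32 and 22, and PTK2, the focal adhesion kinase, 28, 28 and 19 with 8 lost and 1 gained. Without flanks PTK2 had 24, 28 and 19 regions, with 4 lost and 1 gained. Gene starts of chromosome 8 were not used here.

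On chromosome 9 the arms differed as well. The 9p window had 165, 236 and 146 regions, 23 gained and 24 lost, with 3 gained at KANK1 (16, 17 and 15) and 5 lost at GLIS3, a zinc finger gene (27, 28 and 19). The 9q window had 365, 684 and 508 regions, 129 of 673 merged regions gained and 33 lost, and 50 of the gains lay from 1 to 2 Mb. Of its 107 genes, 70 had more regions under each hairpin and 3 had fewer, and 23 gene starts were covered with the hairpins only, more than on any other arm. NOTCH1, a Notch receptor, had 4, 7 and 7 regions, NRARP, a Notch-induced regulator, 2, 7 and 7, and EGFL7, a vascular ligand, 2, 8 and 5. KCNT1, a potassium channel (5, 15 and 11), had the most gained regions, 6, RXRA, the retinoid X receptor, had 17, 34 and 23, and LHX3, a pituitary homeobox gene, 1, 4 and 2. EHMT1, an H3K9 methyltransferase, had 16, 17 and 9, with 3 lost.

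On chromosome 10 the p window had the lowest hairpin 2 ratio of all arms, 0.880, on 83, 141 and 73 regions, with 13 gained and 14 lost. DIP2C had 12, 22 and 13, and ZMYND11, a reader of methylated histone H3.3, 4, 1 and 2. The 10q window had 190, 340 and 251 regions, 55 gained and 31 lost, with 23 gains in the last Mb. STK32C, a kinase, had 5, 14 and 14, BNIP3, a mitochondrial cell death gene, 1, 4 and 4, and MGMT, the DNA alkyl repair enzyme, 10, 12 and 12 with 3 gained and 4 lost. EBF3, a neuronal transcription factor, had 9, 16 and 13, and VENTX, a homeobox gene, 1, 3 and 2. NKX6-2, a homeobox gene of oligodendrocytes, had 1, 0 and 0, and the start of CYP2E1, a cytochrome P450, was covered in the control list only.

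The 11p window held the second highest gained share in the full lists, 90 of 462 merged regions, with 24 lost and 263, 504 and 380 regions. Its gel-forming mucin genes, normally active in gut and airway lining, went from 4 regions in all with shScramble to 28 and 15: MUC5B had 2, 12 and 8, MUC2 had 2, 6 and 5, MUC5AC had 0, 6 and 2, and MUC6 had 0, 4 and 0. The imprinted cluster behind them had 6 of 11 genes with more regions and none with fewer. KCNQ1, a cardiac potassium channel gene (2445008 to 2849105), had 14, 45 and 25 regions with 10 gained and 4 lost, IGF2, a fetal growth factor, 1, 7 and 6, CD81, a tetraspanin, 2, 7 and 9, and CDKN1C, a cell cycle inhibitor, 2, 5 and 4. TRPM5, a taste cell channel, had 4, 8 and 7, and PHLDA2, a placental growth regulator, 2, 5 and 3. The start of INS, the insulin gene, was covered with shScramble only, and that of HRAS, the small GTPase, with the hairpins only. Neighbouring genes of these clusters share regions. On 11q the counts were 163, 283 and 175, with 39 gained and 24 lost (33 and 37 at equal list length). OPCML and NTM, adjacent genes of the same family of neuronal adhesion proteins, differed: OPCML had 24, 50 and 31 regions with 8 gained, and NTM 38, 48 and 26 with 6 lost and 0 gained.

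Chromosome 12 listed 223, 307 and 237 regions on 12p, with 45 gained and 33 lost (35 and 40 at equal list length). CACNA1C, a calcium channel, had 13, 24 and 23, and ERC1, a presynaptic scaffold, 18, 17 and 9 with 5 lost. On 12q there were 176, 307 and 239, with 55 gained and 21 lost, 21 of the gains in the last Mb. FBRSL1 had 5, 17 and 17 regions with 6 gained, EP400, a chromatin remodelling ATPase, a start covered with the hairpins only (5, 9 and 6 in all), and RIMBP2, a presynaptic gene, 2 gained and 2 lost (10, 20 and 12).

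Chromosomes 13, 14 and 15 had 1 window each. The 13q window had 244, 347 and 243 regions, 51 gained and 37 lost (38 and 58 at equal list length). MCF2L, a guanine nucleotide exchange factor, had 17, 29 and 23 with 8 gained and none lost. The coagulation factor genes beside it, F7 and F10, normally active in liver, had 0, 5 and 4 and 1, 6 and 5. IRS2, an insulin receptor substrate, had 3 lost (13, 13 and 10). The 14q window had the highest gained share of all arms, 87 of 444, with 35 lost and 234, 421 and 330 regions. Its gains peaked at 33 from 2 to 3 Mb, where INF2, a formin, had 2, 9 and 8 regions and AKT1, the growth signalling kinase, 2, 8 and 8. JAG2, a Notch ligand further out, had 1, 5 and 8, and MARK3, a microtubule affinity kinase, 2 lost regions (8, 6 and 5). The 15q window had 166, 265 and 159 regions and more losses than gains, 33 against 25. IGF1R, the IGF1 receptor, had 16, 26 and 18, and SNRPA1, a spliceosome protein, 6, 3 and 2.

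Chromosome 16 was gene-rich at both ends. The 16p window had 452, 788 and 562 regions, 99 gained and 35 lost, and 89 of its 197 genes had more regions with both hairpins. Over the 11 genes of the alpha-globin cluster near the tip, locus counts summed to 29, 31 and 33, a region in overlapping loci counting for each gene. HBA2, an alpha-globin gene nearly identical to HBA1, had 1, 3 and 2, RHBDF1 4, 6 and 7, LUC7L, a splicing factor, 4, 2 and 3, and NPRL3, whose introns hold the globin enhancers, 7, 6 and 7 with 3 lost. Further in, LOC124900586 had 7 gained regions (3, 15 and 9), ABCA3, a surfactant lipid transporter, had 1, 11 and 7, and CREBBP, a histone acetyltransferase, 7, 15 and 6. AXIN1, a Wnt pathway scaffold, had 3, 10 and 4, and SOX8 2, 3 and 3. The neighbours CIAO3, an iron-sulfur assembly factor, and HAGHL had 0, 6 and 5 and 0, 7 and 4, partly the same regions. The 16q window had 322, 536 and 414, with 82 gained and 32 lost. GSE1, which binds deacetylase complexes, spans 85169512 to 85676200 and carried the most regions of the named genes, 68, 103 and 73, with 9 gained and 8 lost. CBFA2T3, a corepressor, had 8, 20 and 13, RNF166, a ubiquitin ligase, 0, 5 and 6, and the start of FANCA, a DNA repair gene, was covered with the hairpins only.

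On chromosome 17 the arms again differed. The 17p window had 324, 454 and 348 regions, 48 gained and 40 lost (34 and 49 at equal list length). RAP1GAP2, a Rap GTPase regulator, had 11, 29 and 17 with 7 gained, and VPS53, a vesicle tethering subunit, 6, 8 and 1 with 5 lost. HIC1, a repressor, had 4, 5 and 5. The 17q window had 430, 711 and 536, with 118 gained and 44 lost. RBFOX3, the neuronal splicing factor NeuN, had 24, 60 and 41 regions and 16 gained, the most of any window gene in the full lists. At equal list length it had 7 gained, against 8 each at KCNQ1, PTPRN2 and GSE1. With an authors' p up to 0.05 it had 2 gained, against 6 at GSE1. RPTOR, a subunit of mTORC1, had 28, 42 and 23, with 4 gained and 4 lost.

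Chromosomes 18, 19 and 20 ran from gene-poor to gene-rich. The 18p window had 75, 107 and 77 regions with 13 gained and 13 lost, of which MYOM1, a sarcomere gene (5, 10 and 8), had 2 gained and DLGAP1, a postsynaptic scaffold (20, 27 and 15), 2 gained and 5 lost. SMCHD1, a repressor of the inactive X and of the DUX4 array, had 0, 1 and 2. On 18q the counts were 81, 158 and 92, with 21 gained and 16 lost (14 and 17 at equal list length). Of the 21 gains, 11 lay in the last Mb. NFATC1, a calcium-dependent transcription factor, had 10, 18 and 13 regions, and ATP9B, a flippase, 2 lost regions (5, 11 and 5). The 19p window held 201 genes by their listed coordinates and 513, 798 and 670 regions, 133 gained and 47 lost, the highest number gained on any arm. CBARP, a calcium channel regulator, had 5 gained regions (2, 11 and 9), and SHC2, a neuronal adaptor, had 0, 6 and 6. MBD3, itself a subunit of NuRD, had a start covered with the hairpins only (3, 4 and 5 regions in the locus). PRSS57, a neutrophil protease, had 3, 2 and 1.

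The 19q window, which holds the leukocyte receptors and the terminal zinc finger clusters, had 256, 343 and 298 regions, 51 gained and 33 lost, and of its 182 genes 43 had more regions in each hairpin list and 22 fewer. ZNF787 had 1, 11 and 8, IL11, a cytokine, 0, 4 and 4, and ZSCAN5A 6, 7 and 3 with 3 lost. On 20p the counts were 363, 519 and 377, with 62 gained and 37 lost (51 and 60 at equal list length). EBF4, an early B-cell factor family gene, had 8, 17 and 15, and TMC2, a gene of the inner ear, 13, 12 and 9 with 3 lost. On 20q they were 299, 543 and 424, with 90 gained and 30 lost. CDH4, retinal cadherin, had 20, 52 and 27 with 7 gained and 5 lost, RTEL1, the telomere helicase, 5, 12 and 9, and TNFRSF6B, a decoy receptor that lies just past the end of RTEL1, 0, 4 and 4. GATA5, a cardiac and gut factor, had 1, 2 and 2.

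The last windows were 21q and 22q. On 21q, 383, 626 and 398 regions were listed, 70 gained and 44 lost (57 and 74 at equal list length). PCBP3, an RNA-binding gene, had 6 gained and 4 lost (20, 33 and 19), and PDXK, pyridoxal kinase, had 5, 14 and 5 with a start covered by the hairpins only. The 22q window had 233, 478 and 320 regions, 86 gained and 32 lost, with 28 gains in the last Mb and as many in the innermost Mb. WNT7B, a Wnt ligand near the inner edge, had 10 gained regions (4, 17 and 14 in all). TAFA5, a secreted neuronal protein, had 13, 31 and 20 with 8 gained, SHANK3, a postsynaptic scaffold at 50672823 to 50733212, 3, 7 and 5, and PPARA, a nuclear receptor of fat metabolism, 2, 8 and 3. DENND6B had 0, 6 and 5. TBC1D22A had 22, 40 and 17, with 3 gained and 4 lost.

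**Figure D4:**
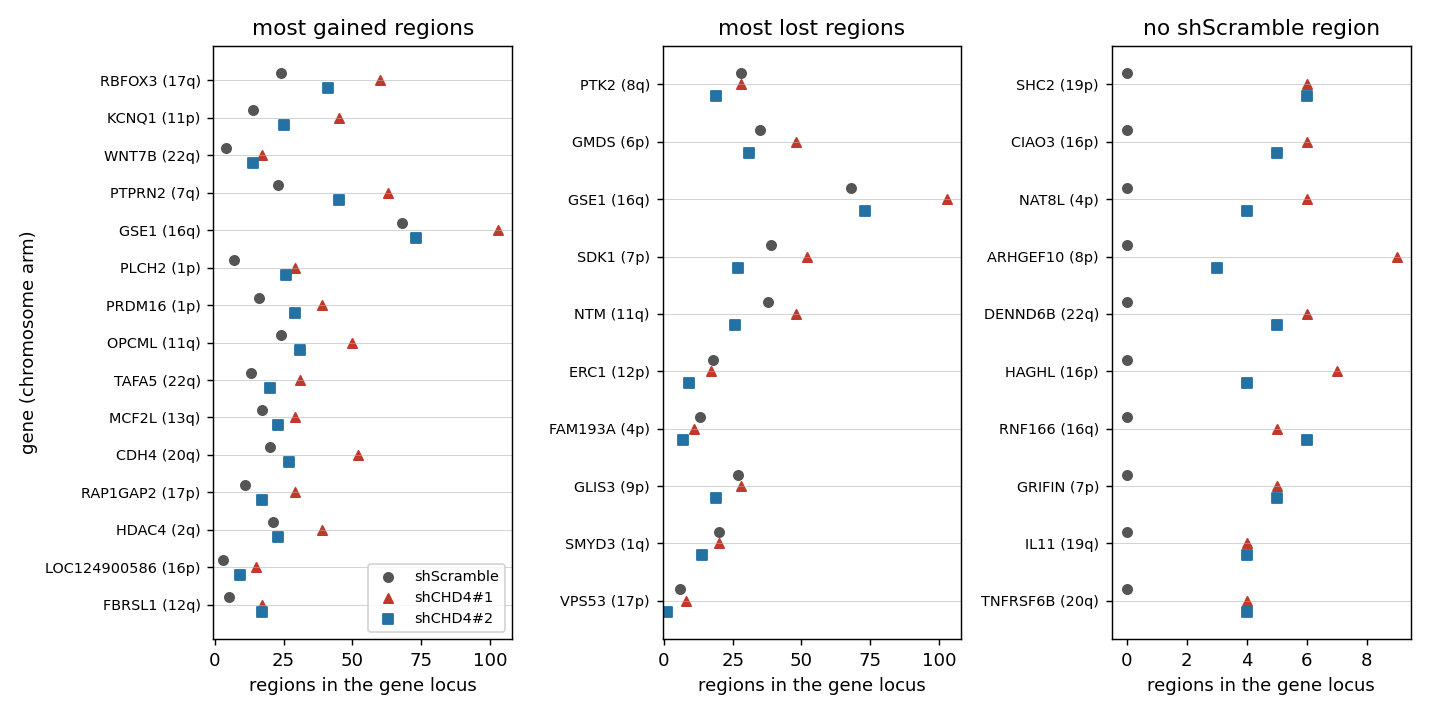
Regions in the gene locus (gene with 5 kb on both sides) for shScramble (grey circles), hairpin 1 (red triangles) and hairpin 2 (blue squares), for the window genes with the most gained, the most lost and, among genes with no shScramble region, the most gained regions. The 15 genes at left have more regions with both hairpins, and of the 10 in the middle panel, 1 has more and 2 have fewer with both.

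Over all windows, each of the hairpin lists held more regions than the control at 1013 of 2498 protein-coding genes (40.6%, 95% Wilson interval 38.6 to 42.5), against 25.6% of all autosomal genes and 23.3% of genes elsewhere. Fewer regions with both were found at 180 (7.21%, 6.26 to 8.29), against 13.2% of all and 14.1% elsewhere. These intervals, and those for genes below, treat genes as independent, although neighbouring genes can share regions. Without flanks 30.9% had more (20.4% elsewhere) and 7.37% fewer (11.6% elsewhere). With lists of equal length 28.9% had more (17% elsewhere) and 14.1% fewer (22.5% elsewhere), and among regions with an authors' p up to 0.05 13.6% had more (10.2% elsewhere) and 4.92% fewer (6.25% elsewhere). The median window gene had a log2 ratio of region number (1 added to each) of 0.42 with hairpin 1 and 0 with hairpin 2, and the median over all genes was 0.19 and 0. No shScramble region was found at 473 window genes, of which 123 had regions in both hairpin lists (26%, 22.3 to 30.1), against 17.7% of such genes elsewhere. Of the 10 genes with the most lost regions, 2 had fewer regions with both hairpins in the full lists, and 9 had fewer regions with both hairpins once the lists were of equal length. The 15 genes with the most gained regions, chosen for that, all had more with both at equal length. When the authors' p had to be 0.05 or less, 9 of those 15 genes and 0 of the 10 without a control region had more with both.

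Gene starts were covered in both hairpin lists and not in the control for 208 of 1842 window genes with a listed start (11.3%, 9.93 to 12.8), against 6.95% of all autosomal genes, and in the control list only for 23 (1.25%, 0.833 to 1.87), against 0.881% of all. Named examples of the second kind, besides those above, are GAS6, a growth arrest ligand on 13q, CHRNE, an acetylcholine receptor subunit on 17p, and TMPRSS3, a protease on 21q. With lists of equal length 165 starts were of the first kind, 146 of them among the 208, and 32 of the second, 23 of them the same. At an authors' p of at most 0.05 the numbers were 97 and 29, of which 2 and 1 were among those named in the full lists. All but 2 of the 208 starts thus rested, in at least 1 of the hairpin lists, on regions with an authors' p above 0.05.

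Gene groups by role are given beside the medians above, since groups of this size were not tested. Of 15 genes for signalling ligands, receptors and their transducers, 12 had more regions in each hairpin list (80%) and 1 had fewer (6.67%). Their locus counts summed to 68 with shScramble, 159 with hairpin 1 and 116 with hairpin 2. In such sums a region in overlapping loci counts for each gene. The median log2 ratios were 1.46 and 0.68. Of 25 developmental transcription factors, 13 had more (52%) and 1 had fewer (4%), with summed locus counts of 90, 167 and 134 and median log2 ratios of 0.51 and 0.26. The 4 whose starts were covered with the hairpins only were HES5, FOXC1, MNX1 and VENTX. Of the 3 telomere maintenance genes, RTEL1 and TELO2 had more and TERT differed between the hairpins. With lists of equal length the signalling genes had 9 with more and 2 with fewer, and the transcription factors 10 and 1. At that length 28.9% of all window genes had more and 14.1% fewer. With an authors' p up to 0.05 the signalling genes had 4 and 1 and the transcription factors 4 and 0, and the imprinted cluster went from 6 and 0 to 1 and 1. At that p 13.6% of all window genes had more and 4.92% fewer. Members with neither include HES4 (5, 6 and 5), EN2 (6, 6 and 7), MSX1 (2, 1 and 2), MAFG (6, 9 and 5), SOX18 (5, 4 and 6), NKX1-1 (0, 0 and 1) and ASCL2 (none) of the transcription factors, TNFRSF18 (5, 5 and 3) of the signalling genes, and TH (2, 3 and 2), NAP1L4 (4, 3 and 5) and TSSC4 (1, 1 and 3) of the imprinted cluster.

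Clusters of tissue-specific multigene families mostly held few regions. Of 92 olfactory receptor genes, 65 had no region in any list, 8 had more (OR14A2, OR2AJ1, OR2C1, OR2L13, OR2V2, OR51D1, OR6B2 and OR8U9) and 2 fewer (OR1F1 and OR52M1) with both hairpins, 8.70% and 2.17%. OR2L13 on 1q had 1, 5 and 2. Of 33 leukocyte receptor complex genes, 21 had none, 3 had more with both (LENG8, LILRA4 and LILRA5) and 2 fewer (LILRB4 and NCR1), 9.09% and 6.06%. Some of the 33 were placed on 19p by their listed coordinates, away from the complex on 19q. The counts of those genes may thus belong to unrelated sequence. Of 22 keratin-associated protein genes, which build hair, 7 had more and 1 had fewer, or 31.8% and 4.55%. Their control locus counts summed to 7, a region in overlapping loci counting for each gene. The 7 with more were KRTAP10-1, KRTAP10-6, KRTAP10-10, KRTAP10-11, KRTAP12-3, KRTAP12-4 and KRTAP5-6, and the 1 with fewer was KRTAP10-5. The 6 defensin genes had 0 and 0. The number of keratin-associated protein genes with more fell to 3 at equal length, 2 without flanks and 0 with an authors' p up to 0.05, and at that p no olfactory or leukocyte receptor gene had more. Zinc finger genes of the C2H2 type, many of them at 19q, had 34 with more (24.3%) and 16 with fewer (11.4%) of 140, near the 25.6% and 13.2% of all autosomal genes, and at equal length 26 and 22. ZNF469 on 16q, a gene of corneal collagen, had 6, 24 and 14, ZFPM1, a GATA cofactor beside it, 13, 16 and 14, and PEG3, an imprinted gene on 19q, 0, 2 and 1. ZNF778 on 16q had 4, 2 and 2. Members of these families resemble each other closely, so reads may be misplaced between them.

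The best-ranked gained region lay 2725 bp from UTS2R on 17q (82367121 to 82369040). The next ones, by the worse of the hairpin ranks, lay 61662 bp from FAM53A on 4p (1511611 to 1512400), inside ULK1, an autophagy kinase on 12q (131910331 to 131913690), at the start of TOR4A on 9q (137276471 to 137277760) and inside PIEZO1, a mechanosensitive channel on 16q (88737511 to 88737970). Their authors' p values in the hairpin lists were 2.53e-05 and 0.000178 at FAM53A, 0.000180 and 0.000617 at ULK1, 0.00122 and 0.00185 at TOR4A, and 0.00187 and 0.00206 at PIEZO1. Lost regions ranked far lower: the best lay at PGBD2 on 1q (248906561 to 248908330), 0.049 Mb from the end of the arm, with an authors' p of 0.0175, followed by ITGB2, a leukocyte integrin on 21q (0.0259), JPH3, a junctophilin on 16q (0.0279), FASTKD5 and UBOX5 on 20p (0.0287) and GSE1 (0.0429).

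The outermost region of each list lay at a similar distance from the end on most arms. In both hairpin lists it was nearer the end than in the control on 21 of 39 arms. Differences of more than 10 kb in the same direction with both hairpins were seen on 2q (122 kb with shScramble, 11.6 and 105 kb with the hairpins), 8p (232, 207 and 207 kb), 10p (113, 80.2 and 88.6 kb), 10q (269, 181 and 180 kb), 11p (208, 198 and 197 kb), 12p (102, 84.3 and 84.2 kb), 18p (268, 137 and 137 kb) and, the other way, 1q (10.4, 31.5 and 31.4 kb). The terminal sequence is made of copies shared between arms, so these positions depend on how reads with several matches were placed, which is not given in the sources used here.

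**Figure D5:**
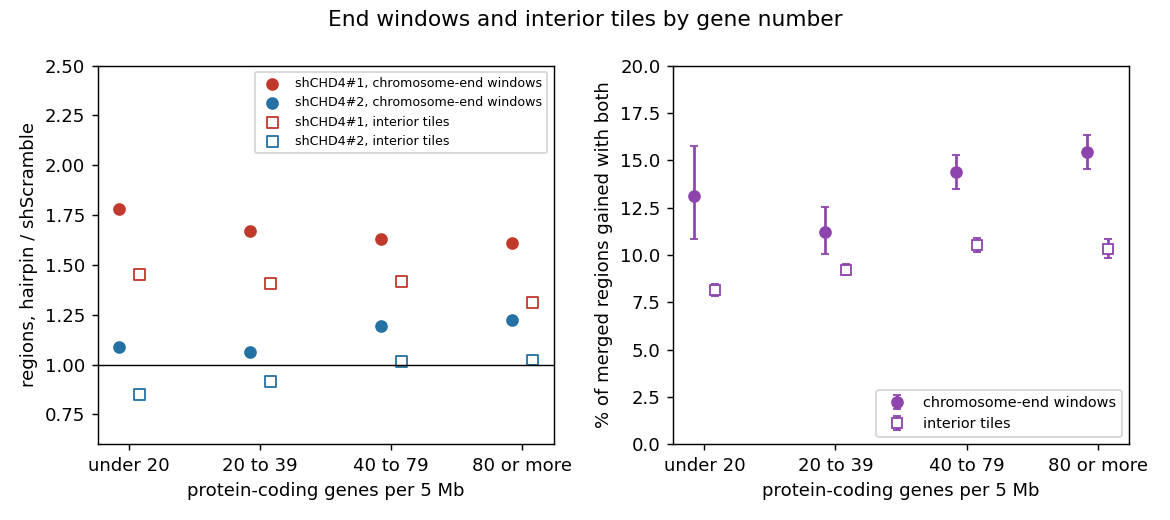
Region number relative to shScramble (left) and share of merged regions gained with both hairpins (right, 95% Wilson intervals) in end windows (filled) and interior 5 Mb tiles (open), by number of protein-coding genes. End windows lie above interior tiles of the same class in each of the 4 classes, for both hairpins and for the gained share.

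Windows and interior tiles of 5 Mb were put in 4 classes by number of protein-coding genes, a comparison chosen after the data were seen. The region ratios are those the windows were chosen by, and the part of gene number in them was not tested. With 80 or more genes, 11 windows had 1.61 and 1.22 times the control regions, and 34 interior tiles 1.31 and 1.02 times. With under 20 genes, 4 windows had 1.78 and 1.09 times, and 212 tiles 1.45 and 0.849 times. The gained share was 15.4% against 10.3% in the densest class, 14.4% against 10.5% for 40 to under 80 genes, 11.2% against 9.22% for 20 to under 40, and 13.1% against 8.14% below 20. Interior tiles had 1477 gained and 1243 lost regions with 80 or more genes, and 2863 and 2479 with 40 to under 80. With 20 to under 40 genes they had 3667 gained and 4768 lost, and below 20 genes 2232 and 3483. The part of base composition was not tested either.

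As a check of the cell label, the Ewing sarcoma markers NR0B1, NKX2-2, CCND1, STEAP1 and PRKCB had between 3 and 33 regions in every list. Of other cell types, HBB, ALAS2 and ALB had none, SERPINA1 and APOB between 0 and 3, and CD3E and PTPRC between 1 and 6. The erythroid genes HBA1 and HBA2 had 3, 3 and 2 and 1, 3 and 2. Some of these counts overlap those of NR0B1 (3, 3 and 4), so the check does not separate the cell types.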

How the data were processed

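ATAC-seq was run on 9 SK-N-MC samples, and the authors deposited 1 region list per group, each filed under replicate 1 with a name that refers to a replicate-combining tool; that each list combines its replicates is an inference. Per the submitters' processing notes, the tools included BWA, SAMtools 1.9, deepTools 3.2.1, Trimmomatic 0.36 and FastQC 0.11.7, and the builds were GRCh38 and dm6. Not given in the sources used here are the peak caller, any Tn5 shift, the use of the Drosophila spike-in and the placement of reads with several matches. Each region of the deposited lists has coordinates, 2 score columns and columns read from their values as a p-value and a q-value. The lists hold no read counts, so depth and its precision are unknown.

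Regions were filtered as in the report, merged by at least 1 bp and compared with RefSeq protein-coding genes and promoters (GRCh38.p14). Genes were placed by their listed coordinates. For some, such as part of the leukocyte receptor complex, these may refer to sequence outside the main chromosome. Such genes were not removed from the gene totals. A gene start was covered by a region within 1 kb; starts of chromosome 8 were not used here. With 1 list per group no test was run; Wilson intervals at 95% cover counting error only. Python 3.11.15, pandas 2.3.3, numpy 2.4.6, scipy 1.17.1 and matplotlib 3.10.9 were used, and the counting steps were tested on simulated data. Named genes were, per arm, the gene with the most gained and the most lost regions, over all windows the 15 most gained, 10 most lost and 10 most gained without a control region, and the listed gene groups; 1 of these groups and 1 marker are not reported here, of the zinc finger group only examples are named, and further genes were added as examples. The windows, members and lists were chosen with earlier results of these data known. Alternatives were windows of 2 and 10 Mb, no filter, a p of at most 0.05, lists cut to equal length, a stricter overlap, other gene flanks and other start definitions. At the cut, 7285 shScramble regions tied in p, of which a random 4910 were kept.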

Additional observations from a re-analysis of the deposited data

Results flagged for a closer look

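Outside the autosomes the same rule applied to the X chromosome gave 47, 50 and 33 regions in its short-arm end window, in the order shScramble, hairpin 1, hairpin 2. Its long-arm end window held 164, 260 and 210. The values of 50, 260 and 210 stand above the control list, and the 33 below it, in windows that no comparison of the report uses. Over the rest of the autosomes the ratios to shScramble were 1.41 for hairpin 1 and 0.944 for hairpin 2. Both X ratios were lower than these on the short arm and higher on the long arm. These differences were not tested, since each group has 1 list. The end windows of the short arms of chromosomes 13, 14, 15, 21 and 22 held 0 regions in all 3 lists. Whether reads could be placed there was not examined, so these values do not measure open DNA.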

How the results depend on the processing

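No paired analysis was possible because each group has 1 list without replicate columns, and for the same reason no replicate could be left out. Of 72 alternative values for the summary results, 23 stayed near the reported value, 45 moved and 4 reversed; in all alternatives run, both region ratios, the gained and lost shares and the shares of genes with more or fewer regions stayed on the same side of the rest of the autosomes. Without the filter none moved. The share of regions at a gene start was the exception, and the cause was not tested.

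With 2 Mb windows the ratio over the rest was 1.20 for hairpin 1 and 1.32 for hairpin 2, the gained share 16.6%, the lost share 6.84%, genes with fewer regions 5.77%, start shares 18.8%, 15.7% and 20.01%, and median widths 1280, 1250 and 970 bp. With 10 Mb windows these were 1.12, 1.20, 13%, 8.37% and 9.03%, with 35.5% of genes having more regions, widths of 1340 and 1350 bp for shScramble and hairpin 1, a start share of 13.1% for hairpin 1 and, reversed against the rest, 17.4% for hairpin 2. Among regions whose authors' p was 0.05 or less they were 1.21, 1.33, 17.3%, 9.99%, 13.6% of genes with more and 4.92% with fewer, widths 1530, 1570 and 1290 bp, and start shares of 26.7%, 21.5% and 30.3%, all reversed, since the rest had 29.8%, 27.6% and 40.4%. With lists of equal length the hairpin 1 ratio over the rest was 1.11, the gained share 12.6% (rest 8.90%), the lost share 12.3% (rest 17.1%), genes with more regions 28.9% and with fewer 14.1%, and the hairpin 1 width 1210 bp. Sharing at least 50% of the shorter region gave a lost share of 10.2%. Genes without flanks gave 30.9% with more regions, and 50 kb flanks 58.8% with more and 5.00% with fewer. Starts within 5 kb gave shares of 26.6%, 24.5% and 28.3%, and either end of every gene, chosen after seeing the data, 22.8%, 20.1% and 24.3%. The arm-by-arm cut and the gene-number classes were also chosen after seeing the data. Of 175 alternative values for single named genes, 115 stayed and 60 moved; WNT7B had 1, 0 and 0 regions with an authors' p of 0.05 or less, and PLCH2 none.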
